A study of Mus musculus with 12 samples.

Results

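The presynaptic vesicle and release machinery was followed here as 51 named genes, taken by symbol from count files of 24421 genes, and all 51 were found and tested among 15622 genes with enough reads. Transcripts were measured by RNA sequencing of polyadenylated RNA from the dorsal hippocampus of 12 male mice of the mixed strain 129sv/C57BL/6j, aged 4 to 5 months. Each library came from 1 mouse, and the 4 groups of 3 were Mbnl2 wild type (WT) house controls, WT trained mice, Mbnl2 knockout (KO) house controls and KO trained mice. The Mbnl2 protein binds RNA and controls alternative splicing. The labels name neither the targeted allele nor the task, nor the time from training to dissection. With 1 mouse per library, each test set a group difference against the spread between these mice.

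At a presynaptic terminal, vesicles are filled with transmitter, held in a pool by synapsins, and brought to the active zone, where Rab3 and scaffold proteins tether them and Munc13 proteins prime them. Fusion is driven by SNARE proteins of the vesicle (synaptobrevin) and the plasma membrane (syntaxin and SNAP25), held ready by complexins and triggered when calcium binds synaptotagmin. Spent SNARE complexes are taken apart by the ATPase NSF with its SNAP adaptors, and the membrane is retrieved by endocytosis. In the hippocampus these proteins serve mostly the glutamatergic terminals of granule and pyramidal cells, and the short-term plasticity of a synapse depends on which isoforms it holds.

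Mbnl2 itself served as a check of the labels. Counted over the whole gene, it had 338, 315 and 324 CPM (counts scaled to a common library size) in WT house controls, 360.4, 363 and 365 in WT trained mice, 488, 470.1 and 454 in KO house controls and 509, 473 and 542 in KO trained mice. Every library labelled KO was above every library labelled WT. With no allele named, a count over the whole gene does not show which part was targeted, so KO and WT below are the labels of the libraries.

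The 5′ flanks of 4 genes on which the genotype comparison turns are shown first, for reference beside their values: Unc13b, Stx1a and Syt1, whose 6 KO values lay above their 6 WT values, and Vamp1, a vesicle SNARE with a lower mean in KO and overlapping values. Vamp2, also without overlap, had no entry in the promoter table used. RefSeq (GRCm38.p6; mm10 is the browser name of GRCm38) gave 52 promoter entries for 39 of the 51 genes, and the 250 bases before the start are printed 5′ to 3′ on the gene's strand. They cover chr4:43058703-43058952 (plus strand) for Unc13b, chr5:135023232-135023481 (plus) for Stx1a, chr10:109010976-109011225 (minus) for Syt1 and chr6:125215331-125215580 (plus) for Vamp1. Capitals mark matches on either strand to the GC box, GGGCGG, or to the E-box, CACGTG.
Unc13b: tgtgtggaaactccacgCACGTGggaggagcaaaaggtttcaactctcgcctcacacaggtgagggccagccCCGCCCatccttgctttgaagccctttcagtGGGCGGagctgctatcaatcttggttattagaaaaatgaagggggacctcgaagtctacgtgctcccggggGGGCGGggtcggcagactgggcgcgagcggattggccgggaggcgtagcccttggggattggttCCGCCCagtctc
Stx1a: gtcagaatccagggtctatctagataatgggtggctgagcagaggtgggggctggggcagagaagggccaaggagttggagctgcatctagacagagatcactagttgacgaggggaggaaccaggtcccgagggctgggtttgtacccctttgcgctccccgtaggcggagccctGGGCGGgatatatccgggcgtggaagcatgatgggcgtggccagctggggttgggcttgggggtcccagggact
Syt1: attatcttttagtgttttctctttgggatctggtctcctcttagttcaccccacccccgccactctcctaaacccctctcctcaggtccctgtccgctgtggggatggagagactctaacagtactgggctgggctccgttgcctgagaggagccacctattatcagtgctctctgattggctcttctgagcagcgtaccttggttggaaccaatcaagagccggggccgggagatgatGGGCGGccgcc
Vamp1: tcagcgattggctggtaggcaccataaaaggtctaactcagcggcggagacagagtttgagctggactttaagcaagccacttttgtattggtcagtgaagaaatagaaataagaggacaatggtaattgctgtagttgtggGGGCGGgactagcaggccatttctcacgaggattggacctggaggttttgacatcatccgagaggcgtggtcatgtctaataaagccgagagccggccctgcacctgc
The Unc13b flank held 4 GC boxes and 1 E-box, and the other 3 flanks held 1 GC box each. Syt1 had another entry, at chr10:109009112-109009361 (minus), with 42.8% G and C and no match to either motif. The flanks of the 39 genes had a median of 61.2% G and C, against 52.4% over the promoters of all 27025 genes with an entry. GC boxes lay in 28 of the 39 (71.8%), in 35.4% of all genes' promoters of the same length and in 61.5% of those of tested genes. E-boxes lay in 6 of the 39 (15.4%, against 6.86% of all and 9.56% of tested genes), and a cyclic AMP response element, TGACGTCA, in 1 (Syn1, 2.56%, against 1.77% and 2.97%). A partial RE1 site, TTCAGCACC, lay in 1 (also Syn1, 2.56%, against 0.348% of all and 0.434% of tested genes). A match to these letters describes the sequence and shows no binding.

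By level per length (RPKM, reads scaled to exonic length and library size, mean of 12 libraries), the 51 genes spanned a wide range. The soluble SNARE clamp Cplx2 was highest at 469 RPKM, followed by the vesicular glutamate transporter Slc17a7 at 355, the endocytic GTPase Dnm1 at 327, the plasma membrane SNARE Snap25 at 309, the vesicle SNARE Vamp2 at 289 and the vesicle marker protein synaptophysin (Syp) at 265. Lowest were Rims3 at 1.21, Sv2c at 1.58, Syt2 at 1.61, Unc13b at 1.69 and Cplx3 at 1.79. The Cplx3 mean was carried by replicate 2 of both KO groups, whose values are given below. Within families the levels were as unequal: the Munc13 gene Unc13a stood at 36.2 RPKM against 3.05 for Unc13c and 1.69 for Unc13b, and the synaptobrevin Vamp2 at 289 against 10.8 for Vamp1. Before division by length, Unc13b averaged above Unc13c. Relative to the geometric mean of the 51 genes, they stood at 0.1945 and 0.1405 in WT and at 0.2048 and 0.1437 in KO. Excitatory hippocampal terminals are known to rely on Munc13-1, the product of Unc13a, and on synaptobrevin 2, that of Vamp2.

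Total counts ran from 19737929 to 27427076 per library, so counting error was small for all but the rarest of the 51 genes, and the mouse-to-mouse spread set the precision. Libraries differed in the tissue they held. Choroid plexus markers (16 of 17 listed tested; Ttr and Enpp2 most abundant) summed to 281 to 22675 CPM in WT house controls, 161 to 11713 in WT trained, 535 to 4363 in KO house controls and 236 to 6689 in KO trained mice. Oligodendrocyte markers (11 of 11; Mbp most abundant) summed to 3275 to 12774, 2836 to 8114, 5612 to 14097 and 3775 to 8968 CPM in the same order, and striatum and septum markers (15 of 15) to 1349 and 1787 CPM in replicate 2 of both KO groups and 1149 in WT house control 3, against 329 to 430 CPM elsewhere. Of all these, only the striatal Isl1 was at 0 in any library. Pan-neuronal markers outside the synapse (12 of 12; Map2 and Eno2) summed to 4704, 3797 and 3777 CPM in WT house controls and to 4482 to 5203 in the other groups.

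The 51 genes together moved with these differences. They summed to 26679, 18452 and 19500 CPM in the WT house controls, 27400, 29154 and 25126 in WT trained mice, 26853, 24013 and 25841 in KO house controls and 29338, 23797 and 28776 in KO trained mice. WT house controls 2 and 3 were the lowest of all 12 libraries, and for 29 of the 51 genes they were the 2 lowest. In 42 genes both lay below WT house control 1. Across the 12 libraries the level of a gene correlated with the mean of the pan-neuronal markers at a median Pearson r of 0.675 (above 0.5 for 33 of 51), and with that of oligodendrocyte markers at a median of -0.613 (below -0.5 for 28 of 51). These are descriptions over libraries that share their composition, and the part of tissue makeup in each comparison below was not tested. No share over all genes was computed for these ranks and correlations, so they are not shown to be particular to presynaptic genes. In bulk tissue, fewer cells of a type and less RNA per cell cannot be told apart.

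**Figure D1:**
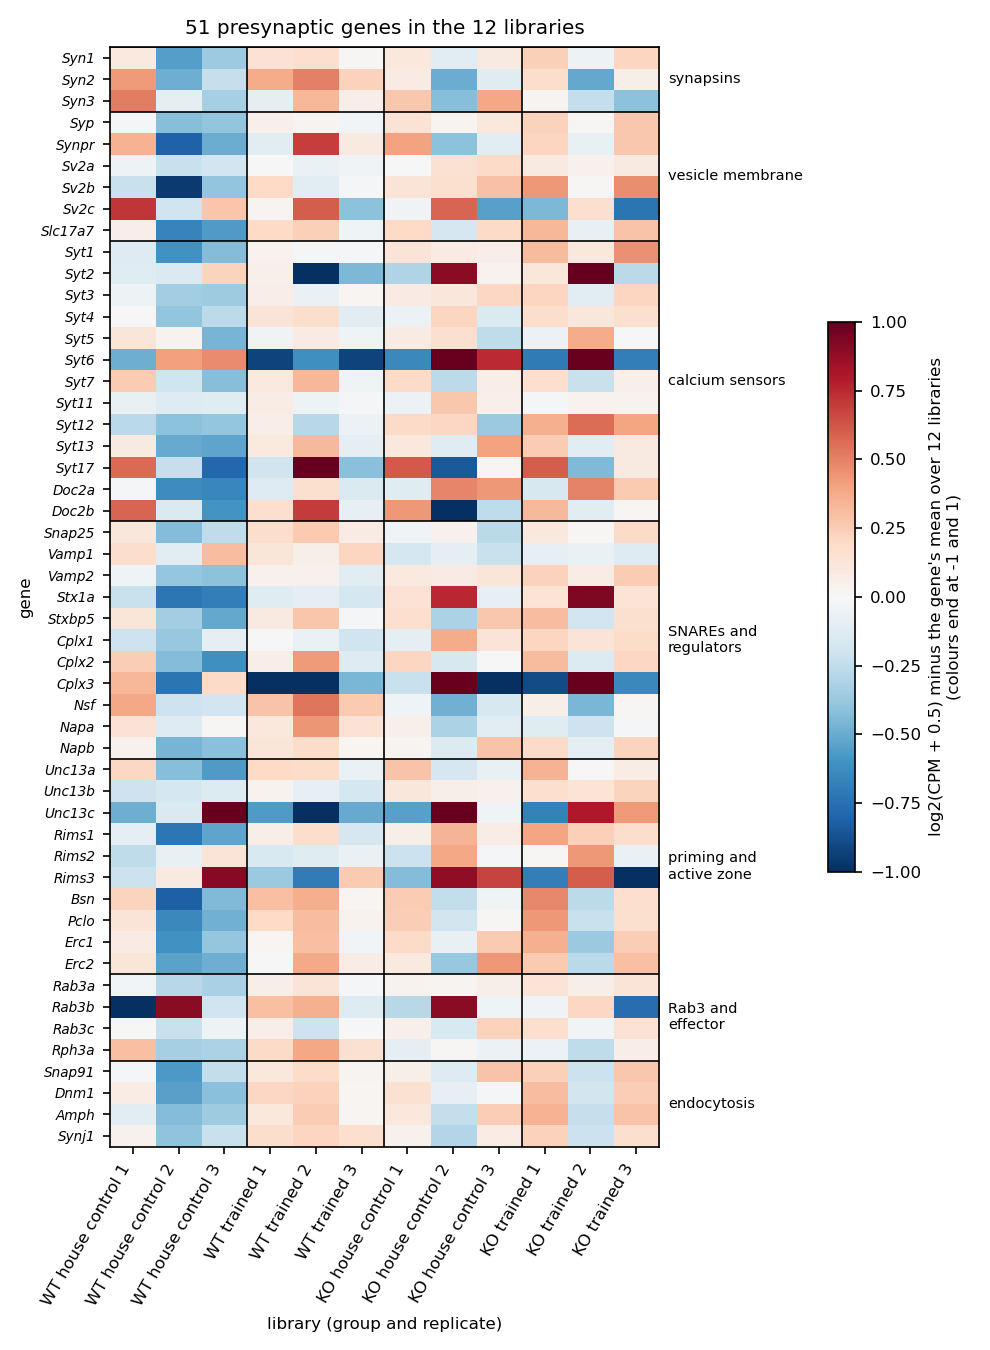
Each row is 1 of the 51 genes, grouped by role, and each column 1 of the 12 libraries; colour gives log2(CPM + 0.5) minus the gene's mean over the 12 libraries, with the scale ending at -1 and 1. WT house controls 2 and 3 are blue, below the gene's mean, over most rows, and replicate 2 of both KO groups is highest in Syt2, Syt5, Syt6, Stx1a, Rims2, Cplx3 and Doc2a.

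**Figure D2:**
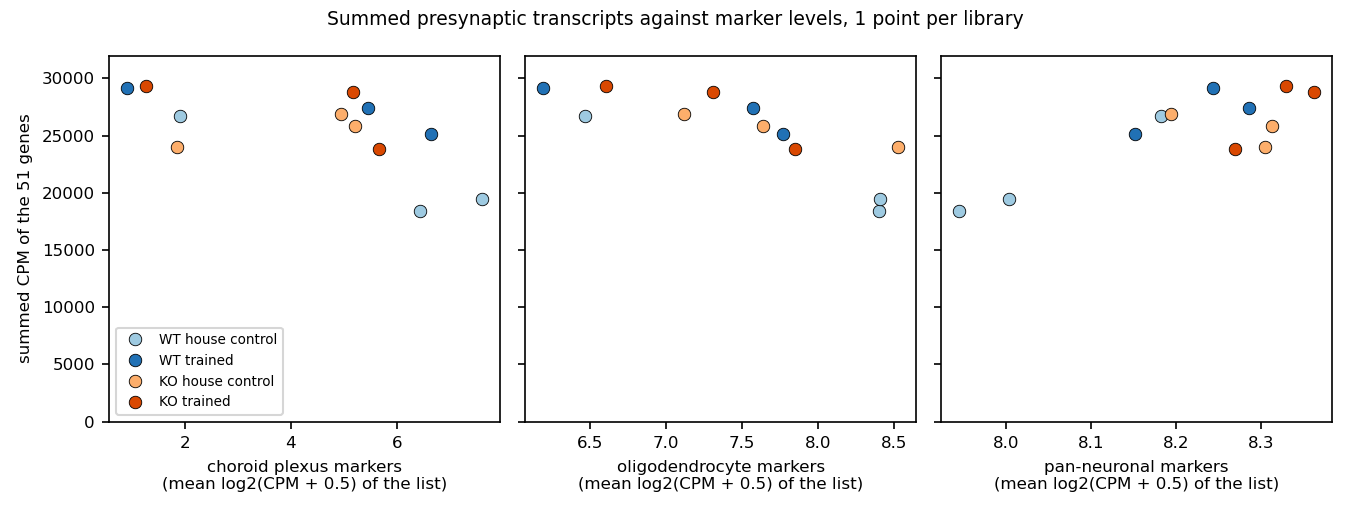
Summed CPM of the 51 genes (vertical, from 0) against the mean log2(CPM + 0.5) of choroid plexus, oligodendrocyte and pan-neuronal markers (horizontal), 1 point per library coloured by group. The 2 lowest points, at 18452 and 19500 CPM, are WT house controls 2 and 3, which also have the lowest pan-neuronal sums (3797 and 3777 CPM).

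The first comparison asked which presynaptic transcripts differed between the genotype labels, averaged over house controls and trained mice. Of the 51 genes 40 were higher in KO and 11 lower, with a median log2 difference of 0.15 (over all genes tested 48.0% were higher, median -0.01). Exactly 1 gene passed the test, the priming factor Unc13b, which was higher (edgeR's quasi-likelihood test, Benjamini-Hochberg adjusted over 15622 genes, threshold 0.05). Over all genes 0.384% passed as higher and 0.192% as lower. At an unadjusted p below 0.05 there were 14 higher and 3 lower (8.54% and 5.89% of all genes). Groups did not overlap, in the higher direction, for Unc13b, Syt1, Stx1a and Vamp2 (4 of 51; 1.06% of all genes) and in the lower direction for 0 (0.717%).

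The split of directions moved with scaling and with a pair of libraries. Beside it, choroid plexus markers were lower in KO by value in 16 of 16 cases (median -1.38) and leptomeningeal markers in 12 of 12 (-0.79), while pan-neuronal markers were higher in 11 of 12 (0.18). Endothelial markers were lower in 7 of 9 (-0.17) and thalamic markers in 11 of 13 (-0.45). Oligodendrocyte markers were split in direction, with 5 of 11 higher (-0.00042), as were astrocyte markers, with 4 of 9 higher (-0.0059). Oligodendrocyte sums varied widely within each genotype, so their median does not show them to be level. Microglial markers were higher in 8 of 9 (0.096). When libraries were scaled to equal pan-neuronal markers, an alternative chosen after seeing the data that moved the median of all genes to -0.17, 25 of the 51 genes were higher and 26 lower, with a median of -0.00015. Without WT house controls 2 and 3 the median was 0.04 and 29 genes were higher, and without WT house control 1 it was 0.24 and 4 genes passed, Syp, Syt1, Vamp2 and Rims1, in a fit that called 203 genes higher and 65 lower of 15827, against 60 and 30 with all libraries. Under DESeq2, which called 4.64% of all genes against 0.576% by edgeR, 11 of the 51 passed: Unc13b, Syt1, Syt12, Syp, Vamp2, Stx1a, Rims1, Cplx1, Sv2a and Sv2b higher, and Vamp1 lower.

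**Figure D3:**
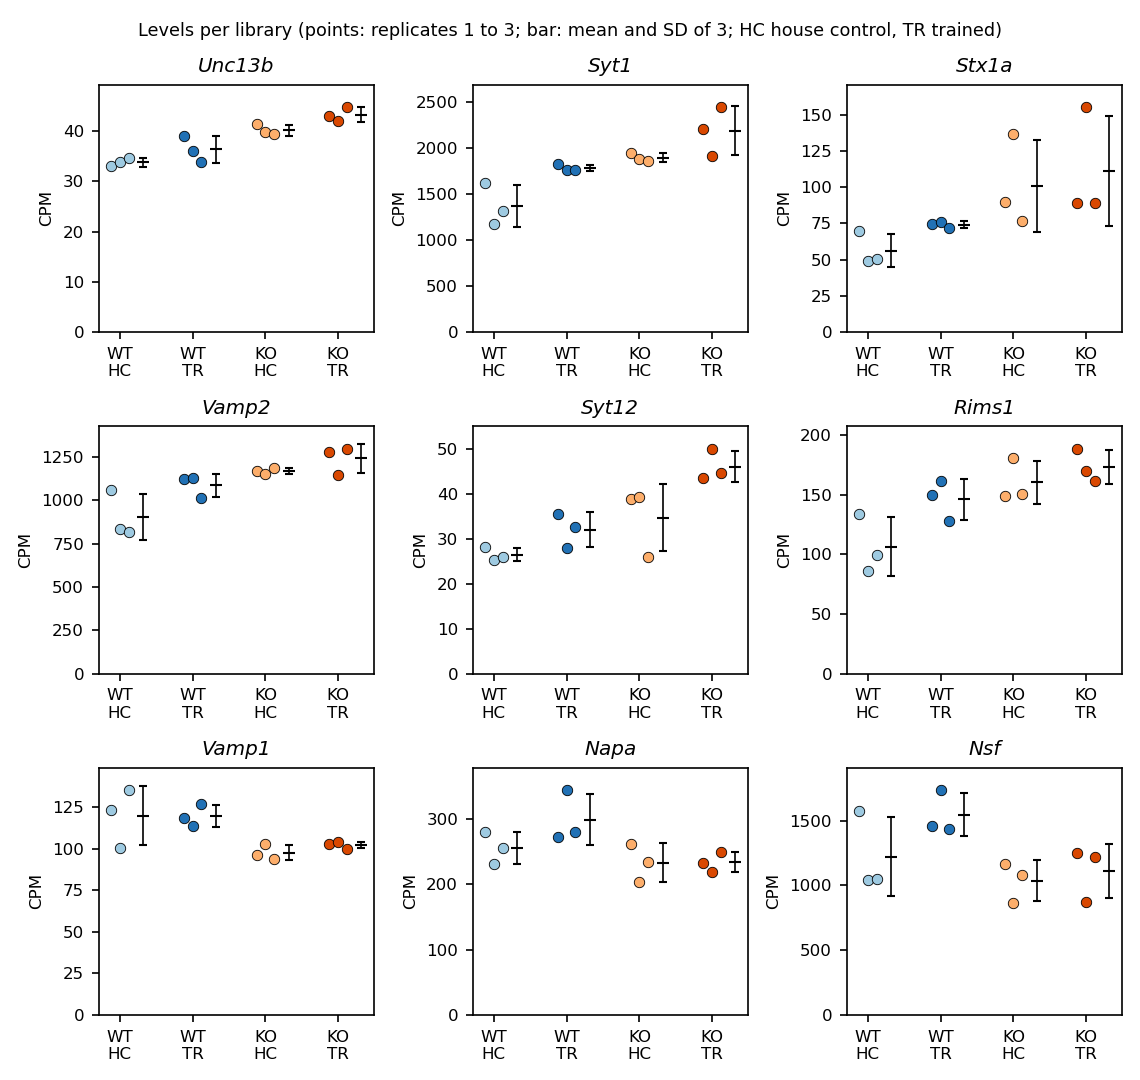
CPM (vertical, from 0) of 9 named genes in each library, grouped as WT house control, WT trained, KO house control and KO trained; points are replicates 1 to 3 and bars the mean and SD of 3. Unc13b, Syt1, Stx1a and Vamp2 have every KO point above every WT point, while for Vamp1, Napa and Nsf the KO means lie below the WT means and the points overlap.

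Among priming factors and active zone scaffolds, all 10 genes were higher in KO by value (median log2 difference 0.18), though only 6 of 10 under pan-neuronal scaling (median 0.02). Unc13b (chromosome 4, 43058953 to 43264871), which encodes Munc13-2, a priming factor known from a subset of hippocampal synapses, had 33.0, 33.8 and 34.7 CPM in WT house controls, 39.1, 36.1 and 33.8 in WT trained mice, 41.4, 39.8 and 39.4 in KO house controls and 43.1, 42.0 and 44.8 in KO trained mice. The lowest KO library, at 39.4 CPM, lay just above the highest WT library, at 39.1, and the spread within each group was narrow. The mean was 35.1 ± 2.24 CPM (SD, n = 6) in WT and 41.7 ± 2.03 (SD, n = 6) in KO, a log2 difference of 0.25 (SE 0.05, edgeR adjusted p = 0.0497), or 1.19-fold.

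That call was at the edge of the threshold. It held when WT trained mouse 1 was left out (edgeR adjusted p = 0.0412) and was lost when any other single library was, with adjusted p from just above the threshold (without WT house control 1) to 0.136 and log2 differences of 0.23 to 0.27 in those 11 fits. Under pan-neuronal scaling the log2 difference was 0.09 (edgeR adjusted p = 0.348). Unc13b correlated with pan-neuronal markers at r = 0.755 and with CA1 pyramidal markers at r = 0.65 over the 12 libraries. CA1 markers (11 of 11 tested; Wfs1 and Mpped1 most abundant) summed to 388 to 751 CPM in WT and 543 to 980 in KO libraries, with 10 of 11 higher by value, and the part of this in the Unc13b difference was not tested.

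Rims1, a scaffold that binds Rab3 and Munc13, had 134, 86.4 and 99.2 CPM in WT house controls, 149.6, 162 and 128 in WT trained mice, 149, 181 and 151 in KO house controls and 189, 169.6 and 162 in KO trained mice. WT house controls 2 and 3 were the lowest, and WT and KO overlapped between 149 and 162 CPM. The log2 difference was 0.42 (SE 0.11, edgeR adjusted p = 0.12), and 0.25 without those 2 libraries. Unc13a, the main Munc13 of hippocampal terminals, spanned 304 to 518 CPM in WT and 401 to 574 in KO, with a log2 difference of 0.15 (SE 0.14) and a 95% interval from -0.17 to 0.46. Bsn, the giant scaffold bassoon, spanned 431 to 974 and 633 to 1060 CPM, with an interval from -0.31 to 0.52. Both Unc13a and Bsn were lower in KO by value without WT house controls 2 and 3 (-0.07 and -0.14) and under pan-neuronal scaling (-0.00015 and -0.04). The other scaffolds, Pclo, Erc1, Erc2, Rims2, Rims3 and Unc13c, overlapped between genotypes.

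Of the 13 synaptotagmin and Doc2 genes, 10 were higher in KO by value (median 0.20, and 7 of 13 with 0.05 under pan-neuronal scaling). The test passed 0 of them, and 4 had an unadjusted p below 0.05 (Syt1, Syt3, Syt12 and Doc2a, all higher). Over all genes 14.4% had such a p, 8.54% as higher. Syt1, the calcium sensor for fast synchronous release, had 1621, 1169 and 1315 CPM in WT house controls, 1821, 1759 and 1758 in WT trained mice, 1945, 1878 and 1857 in KO house controls and 2208, 1907 and 2443 in KO trained mice. All 6 KO libraries lay above all 6 WT libraries, and the lowest values were again WT house controls 2 and 3. On the log2 scale the difference was 0.38 (SE 0.09, edgeR adjusted p = 0.0995), with alternatives from 0.23 under pan-neuronal scaling to 0.45 without WT house control 1, where it passed (adjusted p = 0.0286).

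Syt12, a synaptotagmin of vesicles that lacks calcium binding, had 28.1, 25.4 and 25.9 CPM in WT house controls, 35.6, 27.9 and 32.6 in WT trained mice, 38.9, 39.2 and 26.1 in KO house controls and 43.5, 50.1 and 44.7 in KO trained mice. KO house control 3 fell inside the WT range, while the KO trained mice were all above it. In the edgeR fit the log2 difference was 0.46 (SE 0.11, edgeR adjusted p = 0.0846), and it passed without KO house control 3 (0.55, adjusted p = 0.0255). The sources used here do not say whether counting used strand. In the GENCODE annotation, 17.2% of the exonic bases of Syt12 lie under exons of the opposite-strand gene A930001C03Rik. Without strand, reads there could not be assigned to either gene, and whether the counting annotation held both was not checked. Such overlaps also cover 39.4% of the exonic bases of Doc2a, shared with Ino80e, and 16.8% of Syp with Gm14703. They cover 14.5% of Syt4 with Gm26658, 14.1% of Syn3 with Timp3 and 11.8% of Erc1 with Gm44317.

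SNAREs and their regulators moved in both directions by value, 8 of 11 higher and 3 lower (median 0.13; 5 of 11 and -0.02 under pan-neuronal scaling), with 0 past the test and 7 at an unadjusted p below 0.05, where 14.4% of all genes were. Stx1a, the syntaxin of the plasma membrane, had 69.4, 49.0 and 50.1 CPM in WT house controls, 74.6, 76.0 and 71.5 in WT trained mice, 89.7, 137 and 76.5 in KO house controls and 89.3, 155 and 89.1 in KO trained mice. Every KO library was above every WT library, and replicate 2 of both KO groups stood far above the rest. The log2 difference was 0.72 (SE 0.18, edgeR adjusted p = 0.111). Without those 2 libraries, which were rich in striatum, septum and neocortex markers, it was 0.43 (adjusted p = 0.13).

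Vamp2, the main vesicle SNARE, had 1058, 835 and 819 CPM in WT house controls, 1122, 1127 and 1012 in WT trained mice, 1170.2, 1155 and 1187 in KO house controls and 1279.6, 1148 and 1300.2 in KO trained mice. The groups were separated by a narrow gap, from 1127 to 1148 CPM. On the log2 scale the difference was 0.28 (SE 0.08, edgeR adjusted p = 0.137), or 0.17 without WT house controls 2 and 3. Cplx1, a complexin that clamps and promotes fusion, spanned 402 to 522 CPM in WT and 488 to 677 in KO (0.32, SE 0.09, adjusted p = 0.127). Snap25 spanned 1539.9 to 2491 CPM in WT and 1725 to 2377 in KO, a log2 difference of 0.01 with a 95% interval from -0.22 to 0.24.

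Among SNAREs and their regulators, the 3 genes with lower values in KO were Vamp1, Napa and Nsf. Vamp1, the synaptobrevin form prominent in brainstem and spinal cord, had 124, 101 and 135 CPM in WT house controls, 119, 113 and 127 in WT trained mice, 96.5, 103 and 93.7 in KO house controls and 103, 104 and 99.997 in KO trained mice. Only WT house control 2, at 101 CPM, lay within the KO range. The log2 difference was -0.26 (SE 0.07, edgeR adjusted p = 0.121). Under pan-neuronal scaling, which lowers all genes alike and called 328 genes lower in place of 30, it was -0.42 (edgeR adjusted p = 0.0316).

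Nsf, the ATPase that disassembles SNARE complexes, had 1573, 1038 and 1049.8 CPM in WT house controls, 1461, 1736 and 1437 in WT trained mice, 1168, 863 and 1078 in KO house controls and 1249.8, 873 and 1218 in KO trained mice. Its WT house controls 2 and 3 sat among the KO libraries, and replicate 2 of both KO groups was lowest. In the edgeR fit the log2 difference was -0.35 (SE 0.14, edgeR adjusted p = 0.283), or -0.21 without those 2 KO libraries. Napa, which encodes the adaptor alpha-SNAP that recruits NSF, spanned 231 to 344 CPM in WT and 203 to 262 in KO (-0.24, SE 0.09, adjusted p = 0.232). Under pan-neuronal scaling, with its 328 lower calls over all genes, Napa was at -0.40 (adjusted p = 0.0457).

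Nsf and Napa correlated with markers of dentate granule cells across libraries. Their correlation with the mean of dentate granule cell markers over the 12 libraries was r = 0.874 for Nsf and 0.835 for Napa, against 0.26 for Vamp1. Dentate markers (14 of 14 tested; Dsp and Stxbp6 most abundant) summed to 814 to 1912 CPM in WT and 557 to 1342 in KO libraries, and 14 of 14 were lower in KO by value. The part of this in the Nsf and Napa differences was not tested.

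Vesicle membrane proteins were higher in KO by value in 5 of 6 cases (median 0.22, and 4 of 6 with 0.06 under pan-neuronal scaling). The test passed 0 of them, and 3 had an unadjusted p below 0.05, all higher, where 14.4% of all genes did, 8.54% as higher. Sv2b, a vesicle glycoprotein of excitatory terminals, had 376, 225 and 334 CPM in WT house controls, 503, 405 and 435 in WT trained mice, 479, 489 and 537 in KO house controls and 592, 442 and 603 in KO trained mice. The KO minimum, 442 CPM, was exceeded by WT trained mouse 1. The log2 difference was 0.49 (SE 0.13, edgeR adjusted p = 0.121).

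Syp spanned 1021 to 1419 CPM in WT and 1380.2 to 1655 in KO (0.26, SE 0.09, edgeR adjusted p = 0.208), an overlap at the edge only. Slc17a7, which loads glutamate into vesicles, spanned 1182 to 2211 and 1673 to 2365 CPM, a log2 difference of 0.25 with a 95% interval from -0.07 to 0.56. Sv2c, the form found mostly in basal ganglia, was lower by value (10.8 to 24.2 CPM in WT, 8.54 to 22.0 in KO; -0.34, SE 0.27).

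Synapsins, which tether vesicles to each other and to actin, did not share a direction by value (1 of 3 higher, median -0.14, also 1 of 3 under pan-neuronal scaling): Syn1 was 452 to 744 CPM in WT and 612 to 779.6 in KO, while Syn2 was 457 to 913 and 451 to 725 (-0.28, SE 0.18). The test passed 0 of 3, with 95% intervals from -0.09 to 0.40 for Syn1 and from -0.67 to 0.12 for Syn2. The Rab3 group held 2 genes higher and 2 lower by value (0 of 4 higher under pan-neuronal scaling). Rab3a, the main vesicle GTPase, spanned 375 to 513 CPM in WT and 478 to 516 in KO (0.15, SE 0.06, edgeR adjusted p = 0.314), and its effector Rph3a 489.7 to 805 and 515 to 644 (-0.14, SE 0.12). The 4 endocytosis genes were all higher by value (median 0.16; 2 of 4 and 0.0014 under pan-neuronal scaling), the largest being Amph at 0.18, and 0 passed. Dnm1 spanned 1161 to 1979 CPM in WT and 1492 to 2095 in KO, with an interval from -0.14 to 0.42.

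**Figure D4:**
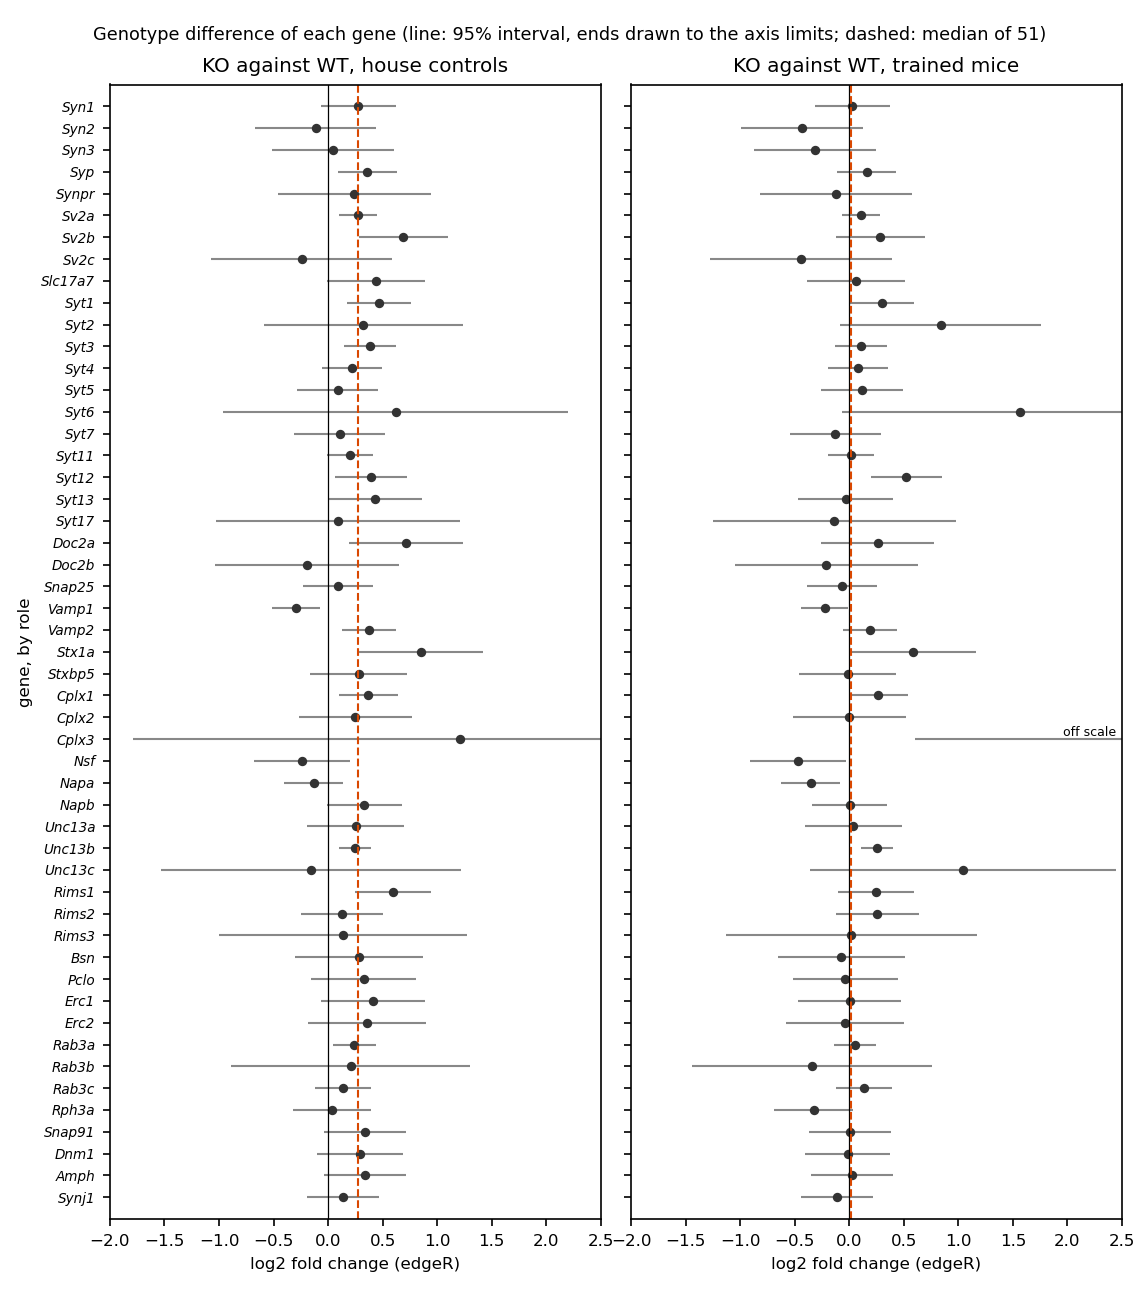
Log2 difference of KO against WT (horizontal) with its 95% interval for each of the 51 genes, by role, in house controls (left) and trained mice (right); the dashed line is the median of the 51, 0.27 on the left and 0.02 on the right, and Cplx3 in trained mice (3.92) lies off the scale. Most points are right of 0 in house controls and spread to both sides in trained mice, and 0 of 51 passed the test in either panel.

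Within house controls, 44 of the 51 genes were higher in KO by value, with a median of 0.27 (over all genes 49.8% higher, median -0.00079), and 0 passed edgeR's test, where 0.0128% of all genes did (0.0064% in each direction). At an unadjusted p below 0.05 were 13 higher and 1 lower (6.11% and 4.56% of all genes), and DESeq2 called 5, Syt1, Vamp2, Rims1, Sv2a and Sv2b, all higher (1.29% of all genes). The 3 KO values lay above the 3 WT values for 11 genes (Rab3a, Vamp2, Stx1a, Rims1, Unc13b, Syt1, Syt3, Syt11, Syp, Sv2a and Sv2b; 6.94% of all genes) and below them for 0 (6.09%). The smallest p-values belonged to Rims1 at 0.59 (SE 0.16, edgeR adjusted p = 0.295), Sv2b at 0.69 (SE 0.18, adjusted p = 0.297) and Unc13b at 0.25 (SE 0.07, adjusted p = 0.298). On the lower side stood Vamp1 at -0.30 (SE 0.10, adjusted p = 0.357), Nsf at -0.24 (SE 0.20) and Napa at -0.13 (SE 0.12).

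The house control median depended on WT house controls 2 and 3. Without both of them, leaving 1 WT house control assumed to vary like the other groups, it was 0.05 with 29 of 51 genes higher, and without WT house control 1 it was 0.44. Without WT house controls 2 and 3 and KO house control 3, the house controls rich in choroid plexus or thalamus RNA, it turned to -0.02 with 23 higher and 28 lower. It was 0.06 (32 higher) under pan-neuronal scaling. Those 2 libraries also had 11421 and 22675 CPM of choroid plexus markers and 12124 and 12774 CPM of oligodendrocyte markers, against 281 and 3275 CPM in WT house control 1.

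Within trained mice, 31 of the 51 genes were higher in KO and 20 lower by value, with a median of 0.02 (over all genes 47.6% higher, median -0.01), which was -0.07 under pan-neuronal scaling, -0.03 without WT trained mouse 3, -0.04 without KO trained mouse 1, 0.00061 without KO trained mouse 3, 0.09 without WT trained mouse 2 and 0.12 without KO trained mouse 2. With edgeR 0 passed (0.0128% of all genes, 0.0064% in each direction), with DESeq2 0 (0.679%), and 5 higher and 3 lower had an unadjusted p below 0.05 (3.74% and 2.71%, or 6.45% in all). Non-overlap was found in both directions: 9 genes had the 3 KO values above the 3 WT values (Vamp2, Cplx1, Stx1a, Rims1, Rims2, Unc13b, Syt1, Syt12 and Sv2a; 7.61% of all genes) and 5 had them below (Rph3a, Nsf, Napa, Vamp1 and Syn2; 6.38%). Unc13b differed by 0.25 (SE 0.07, edgeR adjusted p = 0.477), close to its value in house controls. Syt12 differed by 0.52 (SE 0.15, adjusted p = 0.5). In the authors' deposited table of the same comparison Syt12 was the 1 of the 51 genes past an adjusted p of 0.05, with a log2 fold change of 0.52, a standard error of 0.13 and an adjusted p of 0.0194. Of the genes given an adjusted p in that table, 0.834% passed.

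On the lower side in trained mice, Nsf differed by -0.47 (SE 0.20), Napa by -0.35 (SE 0.12) and Vamp1 by -0.23 (SE 0.10), with edgeR adjusted p of 0.755, 0.653 and 0.763. Cplx3, a complexin of ribbon synapses and of some deep cortical neurons, differed by 3.92 (SE 1.496), which came from a single library. It had 0.449, 0.723 and 1.42 CPM in WT trained mice and 0.918, 37.5 and 1.19 in KO trained mice, and 12.2 CPM in KO house control 2. Without KO trained mouse 2 the log2 difference was 0.29. Cplx3 correlated with neocortex markers at r = 0.898 and with striatum and septum markers at 0.855 over the 12 libraries, and replicate 2 of both KO groups was highest in both lists.

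For 7 genes (Syt2, Syt5, Syt6, Stx1a, Rims2, Cplx3 and Doc2a) those 2 KO libraries were the 2 highest of all 12. Neocortex markers (10 of 10 tested) summed to 487 and 530.4 CPM in them and to 263 to 413 CPM in the other 10 libraries. Whether other tissue in the dissection gave these values was not tested. The share of all genes highest in those 2 libraries was not computed.

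The training comparison asked which presynaptic transcripts differed after the task, over both genotypes. By value 44 of the 51 genes were higher in trained mice, with a median of 0.18 (over all genes 47.7% higher), which was 0.04 without WT house controls 2 and 3, 0.28 without WT house control 1 and 0.07 under pan-neuronal scaling. Markers of other cells were mostly lower by value in the same comparison: oligodendrocyte 11 of 11 (median -0.60), choroid plexus 16 of 16 (-0.35), astrocyte 9 of 9 (-0.28), endothelium 9 of 9 (-0.32), leptomeninges 11 of 12 (-0.78), microglia 8 of 9 (-0.16) and thalamus 12 of 13 (-0.78). Pan-neuronal markers were higher in 11 of 12 (0.13). Endothelial markers summed to 264 to 329.9 CPM in WT house controls, 195.6 to 225 in WT trained, 222 to 253 in KO house controls and 208 to 211 in KO trained mice, and the part of these in the training values was not tested. Of the 51, 0 passed edgeR's test, as did 0.0% of all genes, or DESeq2's (0.442%). At an unadjusted p below 0.05 were 10 higher and 0 lower (4.57% and 6.59% of all genes): Rab3a, Snap25, Vamp2, Rims1, Unc13b, Syt1, Syt4, Syt12, Synj1 and Sv2b. For 0 genes did the 6 trained libraries lie apart from the 6 house controls (0.198% and 0.288% of all genes). The smallest p-values belonged to Syt12 (0.34, SE 0.11), Syt1 (0.29, SE 0.09) and Rab3a (0.17, SE 0.06), with edgeR adjusted p of 0.414, 0.414 and 0.422.

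In WT mice the training median was 0.33, with 43 of 51 higher by value (48.3% of all genes) and 0 past edgeR's test (0.0% of all genes) or DESeq2's (0.102%). At an unadjusted p below 0.05 were 14 higher and 0 lower (4.78% and 5.04%, or 9.82% in all), and trained values lay above all house controls for 8 genes (7.01% of all genes) and below for 2, Unc13c and Syt6 (7.8%). Rab3a was 0.26 (SE 0.09), Rims1 0.46 (SE 0.16) and Syt1 0.38 (SE 0.13), each with an edgeR adjusted p of 0.502. This comparison shares its 3 house controls with the genotype comparison in house controls, so the 2 medians are not separate observations. Without WT house controls 2 and 3 the training median in WT was 0.03, and Rab3a, Rims1 and Syt1 were at 0.09, 0.13 and 0.14. Without WT house control 1 it was 0.51.

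The genes with lower values after training in WT, Unc13c at -1.36 (SE 0.64), Syt6 at -1.07 (SE 0.73) and Rims3 at -0.59 (SE 0.52), had single high house controls or a wide spread. Unc13c, the Munc13 of cerebellar granule cells, had 15.9, 20.3 and 67.8 CPM in WT house controls and 15.04, 9.92 and 15.7 in WT trained mice. Only WT house control 3, high in striatum and septum markers, stood apart, and without it the difference was -0.42. Rims3 was at -0.17 without the same library. Syt6 had 7.61, 14.5 and 15.2 CPM in WT house controls and 5.48, 6.91 and 5.48 in WT trained mice.

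In KO mice the training median was 0.08 (0.01 without KO trained mouse 1, 0.03 without KO house control 2 and 0.14 without KO trained mouse 2). By value 37 of 51 genes were higher (49.1% of all genes), and edgeR and DESeq2 each passed 0 (0.0% and 0.0448% of all genes). Syt12 alone had an unadjusted p below 0.05 (1 of 51, where 3.01% of all genes did, 0.973% as higher): its log2 difference was 0.41 (SE 0.15, edgeR adjusted p = 1), with 38.9, 39.2 and 26.1 CPM in house controls and 43.5, 50.1 and 44.7 in trained mice. Trained values lay above house controls for 3 genes, Rab3a, Unc13b and Syt12 (3.34% of all genes), and below for 0 (4.54%). Behind the lower values stood Rims3 (-0.71, SE 0.52), Syn3 (-0.32, SE 0.25) and Sv2c (-0.38, SE 0.38).

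The interaction of genotype and training asked whether the training difference itself depended on genotype. By value it was negative for 41 of the 51 genes, with a median of -0.23 (over all genes 48.6% were positive, median -0.0068). However, 0 passed edgeR's or DESeq2's test, 0 had an unadjusted p below 0.05 (1.5% of all genes did), and the smallest edgeR adjusted p was 0.9997. The smallest unadjusted p-values on the negative side were those of Syt3 (-0.27, SE 0.15), Syt13 (-0.46, SE 0.28) and Rph3a (-0.36, SE 0.23). On the positive side stood Cplx3 (2.71, SE 1.96), Unc13c (1.20, SE 0.88) and Syt6 (0.95, SE 1.02). Without KO trained mouse 2 the interaction was -0.92 for Cplx3 and -0.48 for Syt6. Without WT house controls 2 and 3 and KO house control 3 it was 0.06 for Syt13, 0.016 for Rph3a and -0.13 for Unc13c. The medians in WT (0.33) and in KO (0.08) were not shown to differ. As given above, the WT median fell without WT house controls 2 and 3, and the interaction median was not computed without them.

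Ratios of genes within a library do not depend on how libraries are scaled, and were examined after the values above had been seen. Relative to the geometric mean of the 51 genes, the 6 KO libraries lay below the 6 WT libraries for Vamp1, Nsf and Napa. These were 3 of 51, near the share over all genes (4.16%), and 0 lay above (0.205%). The geometric mean itself was 150.3 to 205.4 CPM in WT and 198.0 to 212.8 in KO libraries, which by itself lowers ratios to it in KO. For Vamp1 this ratio was 0.552 to 0.829 in WT and 0.473 to 0.4998 in KO, for Nsf 6.43 to 8.45 and 4.10 to 6.09, and for Napa 1.42 to 1.68 and 0.979 to 1.32. The KO mean was 0.738, 0.702 and 0.754 of the WT mean. Within WT, house control 3 had the highest ratio for Vamp1 and the lowest for Nsf.

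Snap25 itself differed by 0.01 between the labels on the log2 scale, and by -0.14 under pan-neuronal scaling. Relative to Snap25, KO lay above WT for Syt1, Stx1a and Rims1 (3 of 50, against 0.531% of all genes) and below for 0 (0.173%). Snap25 over the geometric mean of the 51 genes averaged 11.44 in WT and 10.31 in KO. Ratios to Snap25 therefore ran higher in KO than ratios to that mean, over which Syt1, Stx1a and Rims1 overlapped. The Syt1 to Snap25 ratio was 0.722, 0.759 and 0.752 in WT house controls, 0.774, 0.706 and 0.799 in WT trained mice, 0.957, 0.879 and 1.08 in KO house controls and 0.984, 0.910 and 1.03 in KO trained mice. Its mean was 0.752 ± 0.0341 (SD, n = 6) in WT and 0.972 ± 0.0734 (SD, n = 6) in KO. The Stx1a to Snap25 ratio was 0.0287 to 0.0325 in WT and 0.0375 to 0.0741 in KO.

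Of 7 pairs of related genes, chosen after seeing the values and given with no test, the Vamp2 to Vamp1 ratio also kept the labels apart, at 8.57, 8.30 and 6.05 in WT house controls, 9.45, 9.94 and 7.99 in WT trained mice, 12.1, 11.3 and 12.7 in KO house controls and 12.4, 11.1 and 13.0 in KO trained mice. Every KO library thus held less Vamp1 per Vamp2 read than every WT library. The ratios Syp to Syn2, Sv2b to Sv2c, Unc13b to Unc13a and Cplx1 to Cplx2 overlapped.

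**Figure D5:**
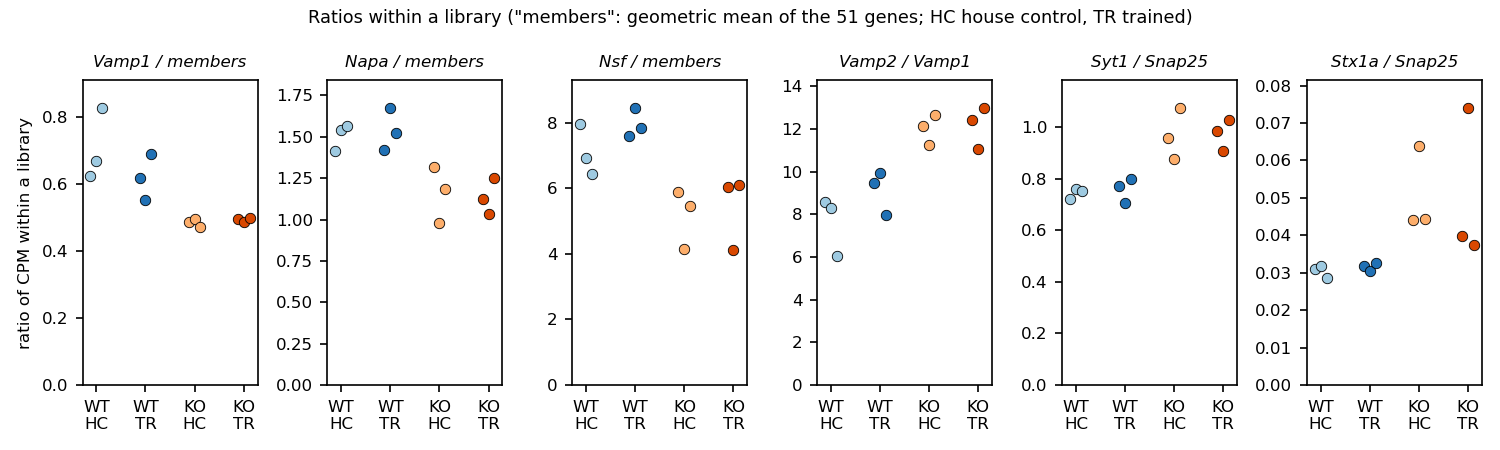
Ratios of CPM within a library (vertical, each panel from 0) for the 4 groups of 3 libraries: Vamp1, Napa and Nsf over the geometric mean of the 51 genes, Vamp2 over Vamp1, and Syt1 and Stx1a over Snap25. In each panel the 6 KO points lie on one side of the 6 WT points, for example 11.1 to 13.0 against 6.05 to 9.94 for Vamp2 over Vamp1.

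A further 111 presynaptic genes outside the 51 were set beside them, of which 109 were tested. In KO against WT over both treatments 76 were higher by value (median 0.10), 0 passed as higher and 2 passed as lower, Tprgl and Ppfia1. At an unadjusted p below 0.05 were 19 higher and 3 lower, beside 8.54% and 5.89% of all genes, of which 0.192% passed as lower. Tprgl (chromosome 4, 154157485 to 154160666), which encodes a vesicle-associated protein also known as mover, had 165, 157 and 155 CPM in WT house controls, 161, 160.3 and 159.9 in WT trained mice, 128, 139 and 123 in KO house controls and 129.9, 132 and 130.3 in KO trained mice. The lowest WT library, at 155 CPM, lay above the highest KO library, at 139. It fell by 0.29 on the log2 scale (SE 0.04, edgeR adjusted p = 0.0251), and passed in 5 of the 12 fits with 1 library left out, those without WT house control 1 or 3, KO house control 2 or 3, or KO trained mouse 2; the adjusted p reached 0.0853 in the other 7.

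Ppfia1, the active zone scaffold liprin-alpha-1, spanned 38.2 to 44.3 CPM in WT and 32.5 to 38.4 in KO, and fell by 0.24 on the log2 scale (SE 0.04, edgeR adjusted p = 0.0429). Its call held in 1 of 12 fits with 1 library left out, that without WT house control 1. The smallest p-values among higher genes were those of Lin7a (0.45, SE 0.09, adjusted p = 0.0609), an adaptor of the Lin7 family, the vesicle protein Syngr1 (0.32, SE 0.09, adjusted p = 0.12) and Rims4 (0.66, SE 0.18, adjusted p = 0.128). Baiap3, a Munc13-related protein, was the third on the lower side (-0.73, SE 0.29, adjusted p = 0.282).

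The authors' deposited tables, which compare 2 groups of 3 libraries each, gave 44 of the 51 genes as higher in KO among house controls (median log2 fold change 0.27, 0 past an adjusted p of 0.05, where 0.558% of genes given an adjusted p passed) and 29 of 51 among trained mice (median 0.01, 1 past it). For trained over house control the authors' deposited tables had 43 of 51 higher in WT and 38 of 51 in KO, with 0 past it in either (0.117% and 0.0716% of genes given an adjusted p).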

How the data were processed

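The authors deposited 12 tables of raw read counts per gene symbol, 1 per mouse, whose values are whole numbers with a different total in each library. Per the submitters' processing notes, the build was mm10 and the tools named are HTSeq 0.9.1, TopHat2 2.1.1, DESeq2 1.18.1, cutadapt 1.18 and Bowtie2 2.3.4.2. Whether counting used strand was not stated there. The authors also deposited 4 comparison tables which, per the file headers, hold log2 fold changes with standard errors, a test score (the fold change over its error), p-values unadjusted and adjusted, and a mean normalized signal. That mean signal and score were not used further.

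Counts were fitted over all 12 libraries with edgeR 4.0.16 (R 4.3.3, limma 3.58.1) by the quasi-likelihood test. The fit used TMM scaling, robust estimation and 4 group means, leaving 8 residual degrees of freedom. Genes were kept by filterByExpr, which asked for the equivalent of 10 counts in at least 3 libraries and for 15 counts in total. Tests covered 15622 of 24421 genes, with Benjamini-Hochberg adjustment over all of them and a threshold of 0.05. CPM use TMM-scaled totals, RPKM the exonic length in GENCODE on mm10, and logs an offset of 0.5. A count of 0 allows up to 3 counts, 0.105 to 0.154 CPM. The 12 pairs of replicates were compared and 0 held identical values. The scripts were tested on simulated counts.

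The genes and lists were chosen with earlier results of these data known. Named are genes past the threshold in any of 7 contrasts, up to 6 further genes per direction with the smallest p for genotype over both treatments, up to 3 per direction in the other contrasts, and reference genes of each role. Of the other presynaptic genes, those past the threshold and up to 3 per direction are named. Alternatives were RLE scaling, DESeq2 1.42.0, other filters, each library left out, number runs of libraries, tissue-rich libraries left out and marker covariates, plus 2 added after seeing the data: leaving out WT house controls 2 and 3, and scaling to pan-neuronal markers.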

Additional observations from a re-analysis of the deposited data

How the results depend on the processing

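The number of the 51 genes past the threshold in KO against WT over both treatments (1, Unc13b) was 11 with DESeq2 (512 higher and 213 lower over all genes, against 60 and 30 in edgeR), 3 with marker covariates (Syt3 and Rims1 higher, Sv2c lower; 246 and 131 over all genes), 2 with pan-neuronal scaling (29 and 328) and 0 to 4 with 1 library left out. It was 0 without a filter on low counts, with libraries 1 to 8 alone, without the 3 house controls with most thalamic or choroid plexus RNA (WT 2 and 3, KO 3), without replicate 2 of both KO groups, and without WT house controls 2 and 3. In house controls DESeq2 passed 5 against 0. In the other 5 contrasts the count was 0 under each alternative run.

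The median log2 difference in KO against WT over both treatments was -0.00015 with pan-neuronal scaling, and 0.12 to 0.24 with 1 library left out. In house controls it was -0.023 without the 3 tissue-rich libraries, 0.049 without WT house controls 2 and 3, 0.058 with pan-neuronal scaling and 0.20 to 0.44 with 1 library left out. In trained mice it was -0.04 to 0.12 with 1 library left out. For training it was 0.036 over both genotypes without WT house controls 2 and 3. In WT it was 0.031 without these or the 3 tissue-rich libraries and 0.17 with pan-neuronal scaling. With 1 library left out it was 0.15 to 0.28 over both genotypes, 0.23 to 0.51 in WT and 0.01 to 0.14 in KO. The cause was not tested.

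Directions turned for the following genes. Snap25 (genotype, both treatments) ranged from -0.036 to 0.094 with 1 library left out (also -0.011, -0.0019, -0.010 and -0.0032 where negative), and was -0.0094 in libraries 1 to 8 and -0.047 with marker covariates. Without the 3 tissue-rich libraries, without WT house controls 2 and 3, and with pan-neuronal scaling, the values were -0.090, -0.13 and -0.14 for Snap25, -0.046, -0.070 and -0.00015 for Unc13a, -0.13, -0.14 and -0.036 for Bsn, and -0.027, -0.035 and -0.013 for Dnm1. Rab3a was -0.011 with pan-neuronal scaling. For training, Unc13c over both genotypes was 0.12 with marker covariates, and Rims3 in WT was 0.0045 without the tissue-rich libraries, 0.33 with covariates and 0.0046 without WT house controls 2 and 3. In the interaction, Cplx3 ranged from -0.92 (without KO trained mouse 2) to 4.69 with 1 library left out and Syt6 from -0.48 (the same) to 1.57 (both highest without KO house control 2). Syt6 was -0.022 with covariates, and Unc13c was -0.13, Syt13 0.061 and Rph3a 0.016 without the tissue-rich libraries, with Rph3a at 0.020 without WT house controls 2 and 3.

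No paired analysis was possible because the labels give no number shared between groups: replicates are numbered by accession. Depth was at least 19737929 counts a library, so the number of mice limited precision more than counting did for all but the rarest genes.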

Other observations

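Several presynaptic genes correlated with the means of regional marker lists across the 12 libraries. With dentate granule markers, the calcium sensor Doc2b correlated at r = 0.892, Nsf at 0.874, Napa at 0.835, Syt17 at 0.831 and Syn2 at 0.805, while Syt2, Rims2 and Unc13c stood at -0.832, -0.83 and -0.826. With striatum and septum markers, Rims2 had r = 0.889 and Unc13c 0.888. These values describe 12 libraries that share their composition, and no test was made of them.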
